A study of Mus musculus with 10 samples.

Results

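The genes described here are 10 components of the stress hormone axis and of the cellular response to glucocorticoids: Crh, Crhr1, Crhr2, Crhbp, Nr3c1, Nr3c2, Fkbp5, Sgk1, Tsc22d3 and Pdk4. They were taken by name, and each was read by exactly 1 probe set carrying a single gene symbol, so 10 probe sets are described, out of 21789 with 1 symbol (19938 genes) and 35556 in the whole table. The study measured whole-brain RNA of adult male C57BL/6J mice on Affymetrix whole-transcript arrays. The ethanol groups were offspring of dams that drank 10% ethanol in water from gestational day 0 until the pups were at postnatal day 10, and the control groups were offspring of dams that drank water. All mice were killed with CO2 at postnatal day 70, and none of the groups carried a genetic change. Experiment 1 comprised 2 control and 2 ethanol arrays, each holding RNA pooled from 3 mice. Experiment 2 comprised 3 control and 3 ethanol arrays, each holding RNA pooled from 2 mice. A pool hides the spread between its mice, and whether pools shared a litter is not given in the sources used here, so the p-values measure the spread between pools. Blood corticosterone and the hour of killing are not given in those sources either.

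Corticotropin-releasing hormone, the product of Crh, is made by hypothalamic neurons and by scattered neurons of the forebrain, and it starts the cascade that ends in glucocorticoid release from the adrenal cortex. Glucocorticoids then act back on the brain through 2 nuclear receptors, the glucocorticoid receptor (Nr3c1) and the mineralocorticoid receptor (Nr3c2), which bind DNA and raise the transcription of target genes. Fkbp5, Sgk1, Tsc22d3 and Pdk4 are widely used readouts of that step. The study asked whether early ethanol exposure leaves a lasting difference in adult brain expression, and this axis is one that developmental ethanol exposure is often tested for.

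Deposited log2 values ran from 4.27 to 15.4 over the table, and correlations between arrays lay between 0.989 and 0.996. For each probe set the mean over experiment 1 equalled that over experiment 2 to within 5.83e-05, so ethanol was compared with control within an experiment only. Ranges and rankings given below over all 10 arrays are of values with these equal means. Pan-neuronal markers (10 genes) averaged 11.6 to 11.7 log2 units on all 10 arrays. Pituitary markers differed more between arrays: the mean of 9 of them was 5.72 to 5.89 on the controls and 6.95 to 7.66 on the ethanol arrays of experiment 1, and 6.13 to 6.49 and 6.23 to 8.04 in experiment 2. These and markers of cerebellum and choroid plexus are given below beside the genes they bear on.

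None of the 10 genes passed the test between ethanol and control arrays at an adjusted p under 0.05, in either experiment or over both. That was also so for all 21789 probe sets: limma called 0 (0% of those tested) in experiment 1, 0 in experiment 2 and 0 over both, while 1951, 2172 and 2703 had an unadjusted p under 0.05. An unmoderated linear model called 0 as well, with 1855, 2015 and 2422 at that unadjusted p. Without ethanol replicate 1 of experiment 1 limma called 235 in that experiment, none of the 10 genes among them. Among the 10 genes the number at an unadjusted limma p under 0.05 was 0 in experiment 1, 1 in experiment 2 and 0 over both, against 8.95%, 9.97% and 12.4% of all probe sets. Differences below 0 were found for 7, 6 and 7 of the 10 genes in experiment 1, experiment 2 and over both, against 51.8%, 54.9% and 54.4% of all probe sets. The median difference (ethanol minus control, log2) of the 10 genes over both experiments was -0.03 and that of all probe sets -0.01. The differences ran from -0.10 for Fkbp5 to 0.09 for Crh. Their standard errors were 0.05 to 0.08. Over both experiments the 95% intervals allowed no change larger than 1.08-fold for Crhbp, the narrowest, and 1.18-fold for Crhr1, the widest. Within an experiment they reached 1.33-fold (Crhr1, experiment 1) and 1.27-fold (Fkbp5, experiment 2). These bounds are for whole-brain RNA and set no limit on a change within a single region.

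**Figure D1:**
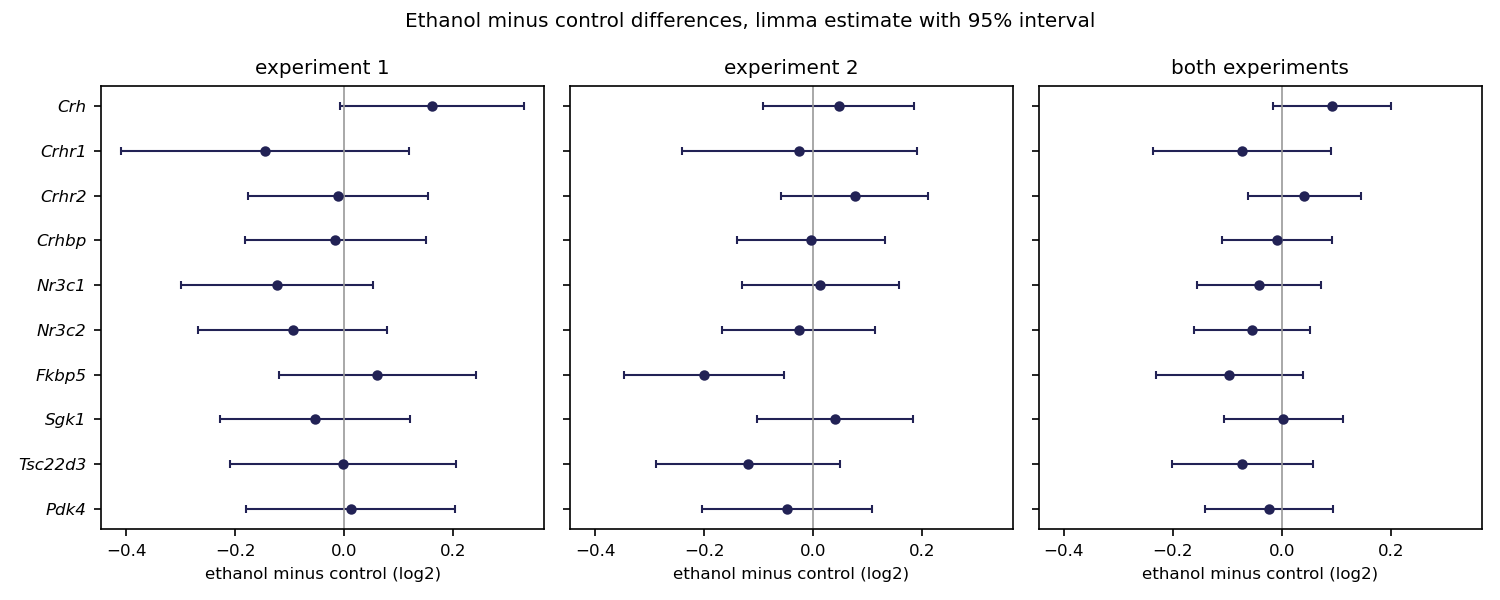
Ethanol minus control differences (log2, x axis) of the 10 genes in experiment 1, in experiment 2 and over both. Points are limma estimates and bars their 95% intervals, and of the 30 intervals shown that of Fkbp5 in experiment 2 (-0.35 to -0.05) does not cross 0.

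The ligand came first in the cascade. Crh (probe set 10497417) read 6.83 and 6.96 on the controls of experiment 1 and 7.08 and 7.03 on its ethanol arrays. In experiment 2 its values were 6.86, 7.02 and 6.97 on the controls and 6.95, 6.96 and 7.07 on the ethanol arrays. Both ethanol arrays thus lay above both controls in experiment 1, whereas the groups overlapped in experiment 2. Such a separation upward was seen for 15.1% of all probe sets in experiment 1. The difference was 0.16 ± 0.08 (SE) in experiment 1, 0.05 ± 0.06 in experiment 2 and 0.09 ± 0.05 over both (limma adjusted p = 0.573, 0.825 and 0.459). Crh was above the control mean of its experiment on 5 of 5 ethanol arrays, as were 7.52% of all probe sets. None of the other 9 genes had that count. The hypothalamic markers measured beside it (10 genes) had a median difference of 0.04, with 7 above 0, and their mean ranged from 7.18 to 7.27 over the 10 arrays.

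Crhbp encodes the secreted protein that binds corticotropin-releasing hormone and keeps it from its receptors. This gene (probe set 10411215) had the narrowest range of the 10, from 8.72 to 8.89 over all arrays. Values on the controls were 8.89 and 8.72 in experiment 1 and 8.89, 8.74 and 8.77 in experiment 2. The ethanol arrays read 8.82 and 8.76, and 8.81, 8.83 and 8.75, inside the span of the controls in both experiments. Over both experiments the difference was -0.01 ± 0.05 (95% interval -0.11 to 0.09).

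Crhr1 is the main brain receptor for this hormone, a G-protein-coupled receptor of cortical, hippocampal and cerebellar neurons and of pituitary corticotropes. Its probe set (10381753) spread most of the 10, by 0.38 log2 units between the lowest and the highest array. The controls read 9.44 and 9.34 in experiment 1 and 9.34, 9.18 and 9.47 in experiment 2. The ethanol arrays read 9.41 and 9.08 in experiment 1 and 9.32, 9.43 and 9.16 in experiment 2. The low ones were replicate 2 of the ethanol group in experiment 1 and replicate 3 in experiment 2, and the other ethanol arrays lay within or near the control span. The difference was -0.14 ± 0.12 in experiment 1 and -0.02 ± 0.10 in experiment 2 (limma adjusted p = 0.759 and 0.950). Without ethanol replicate 2 the difference in experiment 1 was 0.02, and without ethanol replicate 1 it was -0.31.

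Those 2 arrays also had the lowest cerebellar markers. Of 12 cerebellar marker genes 12 had a difference below 0 over both experiments (median -0.20, against -0.01 for all probe sets). Relative to the control mean the list's median was -0.14 and -0.53 on ethanol replicates 1 and 2 of experiment 1, where Crhr1 was at 0.02 and -0.31. On ethanol replicates 1, 2 and 3 of experiment 2 it was -0.04, 0.00 and -0.30, where Crhr1 was at 0.00, 0.10 and -0.17. Among the controls of experiment 2 the order differed: the cerebellar median was 0.09, -0.03 and -0.06 and Crhr1 0.01, -0.15 and 0.14. The mean level of the 12 markers ranged from 10.6 to 10.7 on the controls and 10.1 to 10.5 on the ethanol arrays of experiment 1, and from 10.5 to 10.6 and 10.2 to 10.5 in experiment 2. In bulk tissue fewer cells of a type and less RNA per cell cannot be told apart, and the part of cerebellar content in the Crhr1 values was not tested.

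Crhr2, the receptor that also serves the urocortins, is found in septum, hypothalamus and choroid plexus. It gave a low signal (probe set 10544913, 5.93 to 6.14 over all arrays). On the controls it read 5.99 and 6.00 in experiment 1 and 5.97, 5.95 and 5.94 in experiment 2, and on the ethanol arrays 5.93 and 6.04, and 5.93, 6.01 and 6.14. The controls were tight and the ethanol arrays fell on either side of them. The difference was -0.01 ± 0.08 in experiment 1 and 0.08 ± 0.06 in experiment 2 (limma adjusted p = 0.979 and 0.695). Over both experiments the difference was 0.04 ± 0.05, and with quantile normalization it was -0.0045, so Crhr2 had no settled direction. Of 12 choroid plexus markers 11 had a difference below 0 over both experiments, with a median of -0.11. Their median relative to the control mean was lowest, at -0.31, on ethanol replicate 3 of experiment 2, the array with the highest Crhr2 (0.19 above the control mean). The mean of the 12 choroid plexus markers was 7.96 to 7.98 on the controls and 7.88 to 7.99 on the ethanol arrays of experiment 1, and 7.998 to 8.11 and 7.77 to 7.92 in experiment 2. The part of choroid plexus content in the Crhr2 values was not tested.

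**Figure D2:**
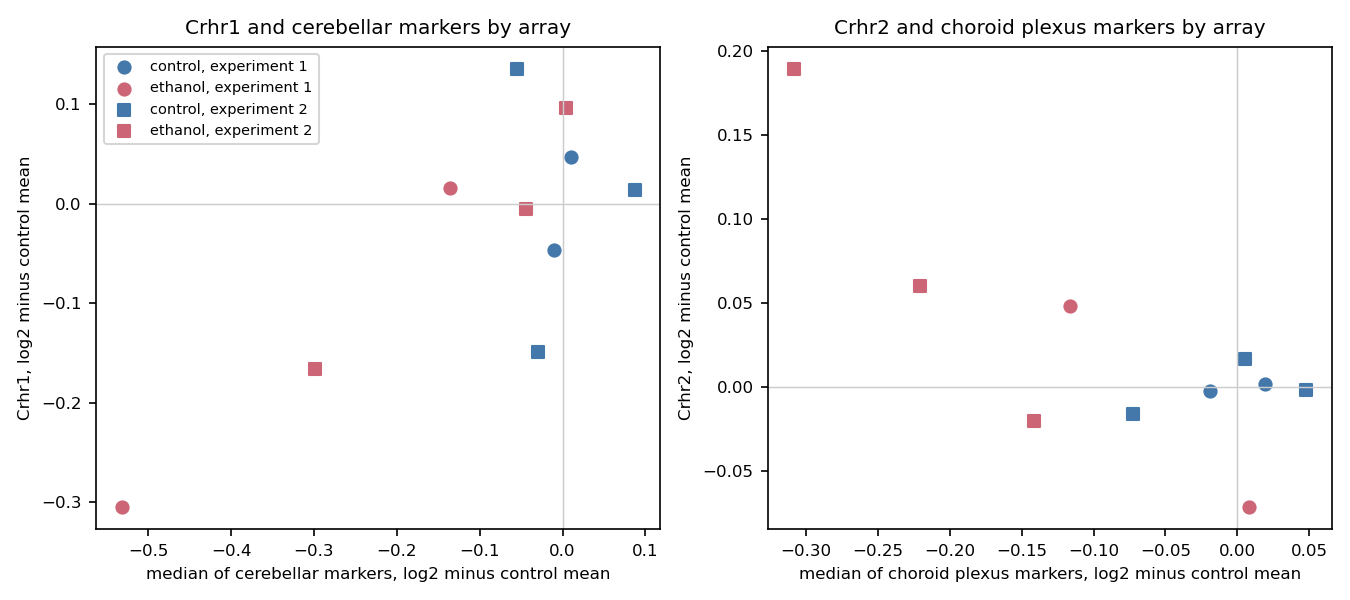
Each point is 1 array, with colour for treatment and shape for experiment; the x axis is the median of the cerebellar (left) or choroid plexus (right) markers and the y axis Crhr1 (left) or Crhr2 (right), all as log2 difference from the mean of the controls in that experiment. At the left, the array lowest in cerebellar markers (-0.53) is also lowest in Crhr1 (-0.31), and at the right the array lowest in choroid plexus markers (-0.31) is highest in Crhr2 (0.19).

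The glucocorticoid receptor gene Nr3c1 and the mineralocorticoid receptor gene Nr3c2 set how strongly a cell answers the hormone; the mineralocorticoid receptor has the higher affinity and is abundant in hippocampus. Nr3c1 (probe set 10458569) read 9.92 and 9.90 on the controls and 9.67 and 9.91 on the ethanol arrays of experiment 1. In experiment 2 it read 9.90, 9.77 and 9.86 on the controls and 9.88, 9.83 and 9.86 on the ethanol arrays. A single array, ethanol replicate 1 of experiment 1, was at -0.24 relative to its control mean while the other 4 ethanol arrays were between -0.01 and 0.03. Nr3c2 (probe set 10572949) was low on the same array: it read 8.74 and 8.75 on the controls and 8.53 and 8.77 on the ethanol arrays of experiment 1. Its values in experiment 2 were 8.69, 8.68 and 8.77 on the controls and 8.68, 8.66 and 8.71 on the ethanol arrays, which overlapped.

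The difference for Nr3c1 was -0.12 ± 0.08 in experiment 1 and 0.01 ± 0.07 in experiment 2, and for Nr3c2 it was -0.09 ± 0.08 and -0.03 ± 0.06 (limma adjusted p from 0.685 to 0.958). Over both experiments the 95% interval was -0.16 to 0.07 for Nr3c1 and -0.16 to 0.05 for Nr3c2. Without ethanol replicate 1 of experiment 1 the difference over both experiments was 0.0076 for Nr3c1. That array had a high Gh value (12.0), Gh being a pituitary transcript. Where Gh was highest (13.5, ethanol replicate 2 of experiment 2), Nr3c1 was at -0.01 and Nr3c2 at -0.05 relative to the control mean. On ethanol replicate 2 of experiment 1, with Gh at 10.7, they were at -0.01 and 0.03. The part of pituitary tissue in the Nr3c1 and Nr3c2 values was not tested.

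**Figure D3:**
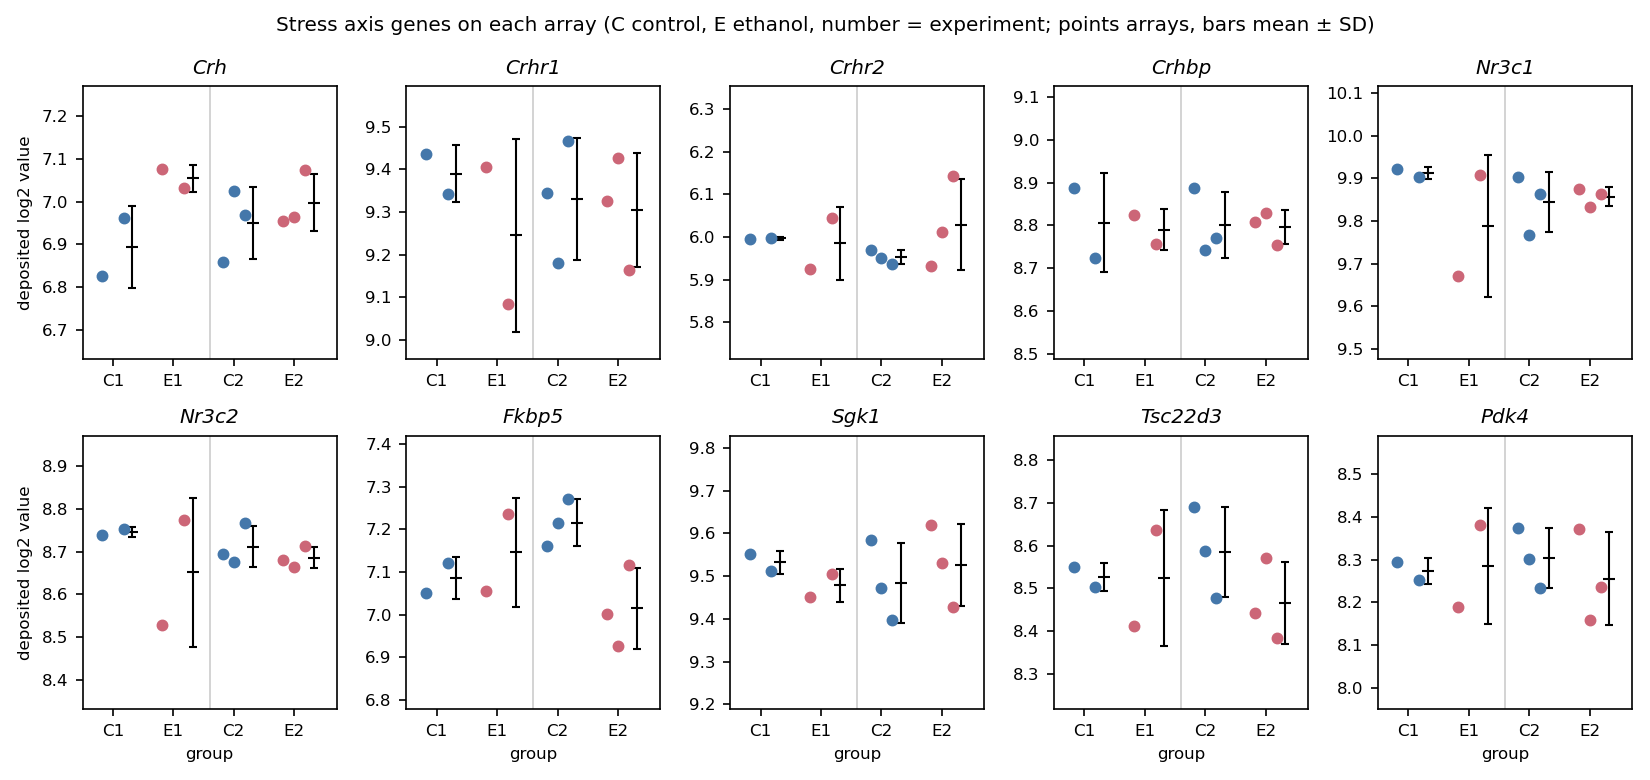
Deposited log2 values of the 10 genes (y axis, all panels spanning the same number of units) by group: C control, E ethanol, with the number of the experiment. Points are arrays and bars the mean ± SD of 2 or 3 arrays, and in the Fkbp5 panel the 3 ethanol arrays of experiment 2 (6.93 to 7.12) lie below its 3 controls (7.16 to 7.27).

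Among the targets, Fkbp5 encodes a cochaperone that lowers the hormone affinity of the glucocorticoid receptor and is itself induced by it, closing a short feedback loop. Crh had the smallest p of the 10 in experiment 1 and over both experiments, and Fkbp5 (probe set 10449452) had it in experiment 2. In experiment 2 it read 7.16, 7.22 and 7.27 on the controls and 7.002, 6.93 and 7.12 on the ethanol arrays, so all 3 ethanol arrays lay below all 3 controls. That downward separation was shared by 11.6% of all probe sets, and an unadjusted p under 0.05 with a lower mean by 6.19%. The difference in experiment 2 was -0.20 ± 0.07, or 1.15-fold (unadjusted p = 0.0121, limma adjusted p = 0.399). In experiment 1 the controls read 7.05 and 7.12 and the ethanol arrays 7.05 and 7.24, a difference of 0.06 ± 0.08 in the other direction (limma adjusted p = 0.869). The 2 experiments differed from each other by -0.26 ± 0.11 (experiment 2 minus experiment 1), which did not pass either (limma adjusted p = 0.745). Over both experiments the difference was -0.10 ± 0.06 (limma adjusted p = 0.527). For the difference between experiments limma called 0 of 21789 probe sets (0%), while 1432 (6.57%) had an unadjusted p under 0.05, 3.24% with a value below 0 as for Fkbp5; an unmoderated model called 0, with 1418.

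Glial markers were also lower on the ethanol arrays of experiment 2. Of 8 astrocyte markers 8 had a difference below 0 there (median -0.11), as had 8 of 8 oligodendrocyte markers (-0.09) and 6 of 8 microglia markers (-0.14). The share was 54.9% of all probe sets, and 0 of these markers passed the adjusted test. With 4 equal bins by mean signal, that share was 71.0% in bin 3 and 73.2% in bin 4 (the highest). The lower values were not particular to glia: 7 of 10 neuron, 6 of 8 endothelial, 12 of 12 cerebellar and 11 of 12 choroid plexus markers were below 0. Hypothalamic (2 of 10) and pituitary (0 of 9) markers were mostly not. Mean levels of the glial markers on the controls and ethanol arrays were 10.78 to 10.83 and 10.70 to 10.73 for astrocytes, 11.01 to 11.08 and 10.95 to 10.97 for oligodendrocytes, and 8.19 to 8.31 and 8.12 to 8.14 for microglia. In experiment 1, where Fkbp5 was at 0.06, the median difference was -0.04, -0.04 and 0.03 for the 3 glial lists, and 7 of 8 microglia markers were above 0. The part of glial content in the Fkbp5 values was not tested.

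Sgk1 encodes serum and glucocorticoid regulated kinase, which acts on ion channels and transporters and is expressed in oligodendrocytes. Promoter windows were searched for 8 of the 10 genes, and among these 8 those of Sgk1 and Tsc22d3 held a motif of the receptor. A window of Sgk1 and a window of Tsc22d3 are shown. The glucocorticoid response element is bound by a receptor dimer as an inverted repeat, searched here as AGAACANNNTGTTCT, with the half-site TGTTCT searched on both strands as a second and overlapping motif. RefSeq promoter windows of the GRCm38.p6 build ran from 250 bases before to 50 after a transcription start. No window of Crh or Nr3c1 was searched, so the motif counts leave these genes out. The windows searched belonged to the other 8 of the 10 genes (15 windows). The full element was found in 1 of those windows, an upstream start of Sgk1 at chr10:21993640-21993939, plus strand, beginning 189 bases before the start. Over all genes 3 of 32851 windows (0.00913%) held it. The half-site was present in 4 of the 15 windows, of Sgk1 (3 of 6) and Tsc22d3 (1 of 3), and in 19.0% of all windows. The windows of Fkbp5, Pdk4, Crhr1, Crhr2, Crhbp and Nr3c2 held neither string. A match is a string of letters and no measured binding, and the array does not tell apart the starts of a gene. Both windows are written 5′ to 3′ on the gene's strand, with half-sites in capitals; in Sgk1 the pair separated by 3 lower-case bases is the full element, and in Tsc22d3 (chrX:140600473-140600772, minus strand) a lone half-site lies 185 bases before the start.
Sgk1: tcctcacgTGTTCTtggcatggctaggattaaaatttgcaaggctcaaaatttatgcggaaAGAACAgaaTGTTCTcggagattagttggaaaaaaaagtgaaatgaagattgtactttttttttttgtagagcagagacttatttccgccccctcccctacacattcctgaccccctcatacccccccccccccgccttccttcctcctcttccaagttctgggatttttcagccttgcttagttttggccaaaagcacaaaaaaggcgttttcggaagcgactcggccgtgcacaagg
Tsc22d3: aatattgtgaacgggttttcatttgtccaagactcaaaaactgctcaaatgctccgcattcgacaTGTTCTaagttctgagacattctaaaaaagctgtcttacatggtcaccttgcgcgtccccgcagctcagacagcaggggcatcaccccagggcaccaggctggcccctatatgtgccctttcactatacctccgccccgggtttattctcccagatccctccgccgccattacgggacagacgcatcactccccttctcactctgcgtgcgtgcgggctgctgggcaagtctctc

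The array signal of Sgk1 (probe set 10362073) had nearly equal group means. It read 9.55 and 9.51 on the controls and 9.45 and 9.50 on the ethanol arrays of experiment 1. In experiment 2 the controls read 9.58, 9.47 and 9.40 and the ethanol arrays 9.62, 9.53 and 9.43. Both ethanol arrays lay below both controls in experiment 1, by a margin under 0.01, a pattern seen for 19.2% of probe sets, and the groups overlapped in experiment 2. The difference was -0.05 ± 0.08 and 0.04 ± 0.07 in the experiments and 0.00 ± 0.05 over both, with a 95% interval of -0.11 to 0.11.

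Tsc22d3, also known as GILZ, encodes a leucine zipper protein that carries part of the anti-inflammatory action of glucocorticoids. Its values (probe set 10606989) were 8.55 and 8.50 on the controls and 8.41 and 8.64 on the ethanol arrays of experiment 1. They were 8.69, 8.59 and 8.48 on the controls and 8.44, 8.57 and 8.38 on the ethanol arrays of experiment 2. The ethanol arrays straddled the controls in experiment 1, and in experiment 2 they overlapped them but reached lower. The difference was 0.00 ± 0.09 in experiment 1, -0.12 ± 0.08 in experiment 2 and -0.07 ± 0.06 over both (limma adjusted p = 0.995, 0.625 and 0.615). Like Fkbp5, it was above its control mean on 1 of 5 ethanol arrays, ethanol replicate 2 of experiment 1 in both cases. At most 1 of 5 was found for 32.6% of all probe sets.

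Pdk4 encodes pyruvate dehydrogenase kinase, which shifts cells from glucose towards fat oxidation in fasting and under glucocorticoids. Its probe set (10543017) read 8.30 and 8.25 on the controls and 8.19 and 8.38 on the ethanol arrays of experiment 1. In experiment 2 it read 8.37, 8.30 and 8.23 on the controls and 8.37, 8.16 and 8.24 on the ethanol arrays. The groups overlapped in both experiments. The difference was 0.01 ± 0.09, -0.05 ± 0.07 and -0.02 ± 0.05 in experiment 1, in experiment 2 and over both, with adjusted p of 0.981, 0.848 and 0.875 by limma.

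Whether the 4 targets varied together between pools was read from how each array deviated from its group mean. In the controls of experiment 2 Sgk1, Tsc22d3 and Pdk4 shared an order: control replicate 1 stood highest (0.10, 0.10 and 0.07), replicate 2 in the middle (-0.01, 0.00 and 0.00) and replicate 3 lowest (-0.09, -0.11 and -0.07). Fkbp5 ran the other way on these arrays (-0.05, 0.00 and 0.05). The ethanol arrays of experiment 2 did not share the order: over replicates 1, 2 and 3 the deviations were 0.09, 0.00 and -0.10 for Sgk1, -0.02, 0.11 and -0.08 for Tsc22d3, and 0.12, -0.10 and -0.02 for Pdk4. Ethanol replicate 2 of experiment 1 was above replicate 1 for all 4 targets. That order was not particular to them: Nr3c1, Nr3c2 and Crhr2 had it too, and Crh, Crhr1 and Crhbp the reverse. The upper quartile of all values was 8.94 on that replicate 1 and 8.98 on replicate 2. Over the 10 arrays Sgk1 and Pdk4 had r = 0.70 and rho = 0.70 (exact permutation within groups, two-sided p = 0.0764 and 0.111, adjusted over 6 pairs 0.292 and 0.333). Sgk1 and Tsc22d3 had r = 0.65 and rho = 0.68 (exact permutation p = 0.0972 and 0.111, adjusted 0.292 and 0.333). None of the 6 pairs passed, and the smallest p this test can give is 0.00694. Leaving out the 2 arrays farthest from the median in Sgk1, which narrows its range, gave r = 0.43 with Pdk4 and 0.79 with Tsc22d3. The relation with Pdk4 was thus weaker without those arrays. With 1 array left out at a time, r of Sgk1 with Pdk4 ran from 0.53 to 0.84.

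Within the 6 arrays of experiment 2 r was 0.74 for Sgk1 with Pdk4 and 0.67 for Sgk1 with Tsc22d3. For Tsc22d3 with Pdk4 r was 0.44 over all arrays (rho = 0.35) and 0.09 within experiment 2, so it did not hold there. Fkbp5 had r = -0.45 with Sgk1 (rho = -0.35), -0.18 with Tsc22d3 (rho = -0.05) and 0.28 with Pdk4 (rho = 0.27), and exact permutation p for r in these 4 pairs ran from 0.292 to 0.750. Within experiment 2 Fkbp5 had r = -0.74 with Sgk1, -0.92 with Tsc22d3 and -0.10 with Pdk4. Within the 4 arrays of experiment 1, whose deviations come to 2 independent points, the sign was opposite: r was 0.54 with Sgk1, 0.84 with Tsc22d3 and 0.83 with Pdk4. With 2 independent points, these signs cannot show whether the relations of Fkbp5 differed between the experiments. Deviations in a group of 2 arrays are equal and opposite, so the 10 points are fewer than 10 independent ones. The immediate early genes, transcribed within minutes of neuronal activity or handling, did not follow the same order: their median was -0.12, 0.12 and 0.00 relative to the control mean on those 3 controls. On the ethanol arrays that median was -0.19 and 0.48 in experiment 1 and 0.57, 0.19 and 0.02 in experiment 2. Sgk1 was highest of its experiment on the array at 0.57, but on the array at 0.48 it was at -0.03 relative to the control mean, below both controls.

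**Figure D4:**
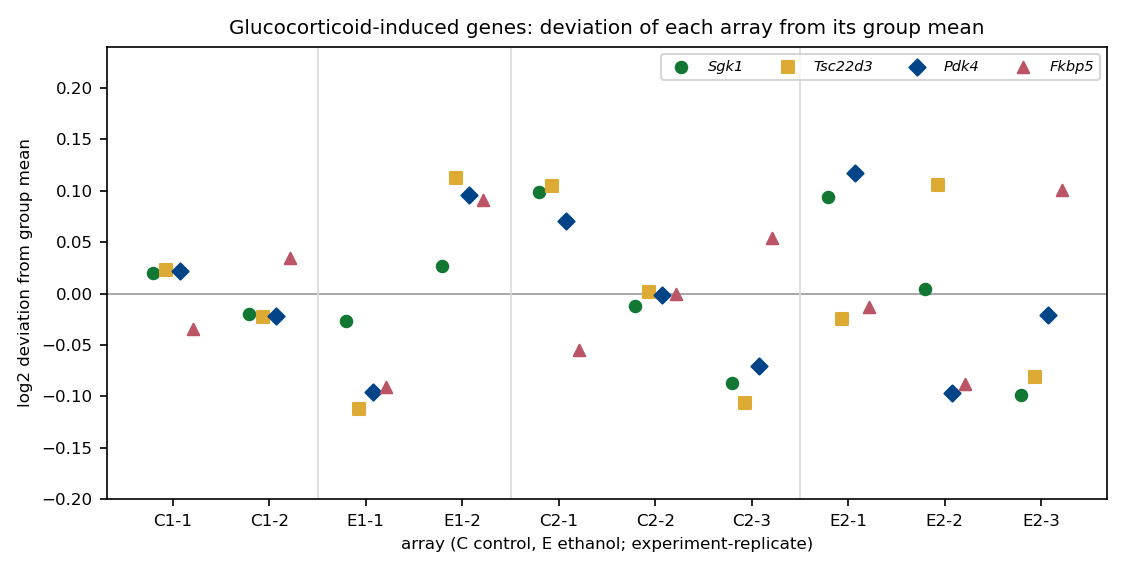
Log2 deviation of each array from the mean of its group (y axis) for the 4 glucocorticoid targets; arrays are on the x axis as C control or E ethanol with experiment and replicate. On the 3 controls of experiment 2 Sgk1, Tsc22d3 and Pdk4 descend together from 0.10, 0.10 and 0.07 to -0.09, -0.11 and -0.07, while Fkbp5 goes from -0.05 to 0.05.

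The wider pathway was read from 4 lists, and the genes named from each are the 3 with the smallest p over both experiments. In the list of peptides, releasing factors and their receptors, 15 of 16 genes were measured and 0 passed over both experiments in either direction. The median difference was 0.02 against -0.01 for all probe sets. Adcyap1, the neuropeptide PACAP that drives stress responses centrally, differed by -0.20 ± 0.07 (limma adjusted p = 0.346). Pomc, the precursor of ACTH, differed by 0.41 ± 0.19 and Avpr1b, the vasopressin receptor of pituitary corticotropes, by 0.10 ± 0.05 (limma adjusted p = 0.402 and 0.431). Pomc read 5.94 and 5.93 on the controls and 6.32 and 6.15 on the ethanol arrays of experiment 1, then 5.78, 5.86 and 5.89 against 6.00, 7.14 and 5.83 in experiment 2. Its highest array, ethanol replicate 2 of experiment 2, was also the one with the highest Gh (13.5) and Prl (11.7). The part of pituitary tissue in the Pomc and Avpr1b values was not tested.

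Enzymes and transporters that make, convert or export corticosteroids (12 of 13 measured) had 0 calls and a median difference of 0.02, which was below 0 (-0.0049 and -0.0053) with quantile normalization and with arrays centred on their medians. Cyp11b1 and Cyp11a1, adrenal steroid synthesis enzymes, differed by 0.08 ± 0.05 and 0.08 ± 0.06, and Hsd11b2, which inactivates corticosterone, by 0.06 ± 0.04. Chaperones and coregulators of the receptors (17 of 20 measured) also had 0 calls, with a median of -0.02. Bag1, a cochaperone of the heat shock proteins that fold the receptor, differed by -0.12 ± 0.05, Smarca4, the chromatin remodelling ATPase, by -0.06 ± 0.04 and the coactivator Ep300 by -0.09 ± 0.06. Ep300 had opposite signs in the experiments, -0.27 ± 0.07 in experiment 1 and 0.03 ± 0.05 in experiment 2, and the difference between them did not pass (0.30 ± 0.09, limma adjusted p = 0.665). Over both experiments adjusted p by limma was 0.375 or more for these 6 genes, and for Ep300 in experiment 1 it was 0.346.

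Other known glucocorticoid-induced genes (25 of 27 measured) were split, with 11 differences above 0 and 14 below, a median of 0.00 and 0 calls. Gpd1, glycerol-3-phosphate dehydrogenase, had the smallest p of the 4 lists at -0.16 ± 0.04 (limma adjusted p = 0.300). It read 10.51 and 10.36 on the controls and 10.25 and 10.27 on the ethanol arrays of experiment 1, and 10.44, 10.40 and 10.44 against 10.24, 10.26 and 10.30 in experiment 2. The ethanol arrays lay below the controls in both experiments, as for 2.82% of all probe sets. Plin4, a lipid droplet protein, had ethanol arrays above the controls in both experiments, as for 1.47% of probe sets, and differed by 0.20 ± 0.07, and Lcn2, lipocalin 2, differed by 0.12 ± 0.05 (limma adjusted p = 0.326 and 0.375). Gpd1 and Plin4 were picked for their small p on these same values, so their separation is no further support.

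Direction also went with signal strength across the table. With probe sets divided by mean signal into 4 bins of equal size, 20.7% of differences over both experiments were below 0 in bin 1 (the lowest), 42.1% in bin 2, 77.3% in bin 3 and 77.5% in bin 4. Crh, Crhr2 and Fkbp5 lay in bin 2, where the median difference was 0.02. Crhbp, Nr3c2, Tsc22d3 and Pdk4 lay in bin 3 (median -0.05), and Crhr1, Nr3c1 and Sgk1 in bin 4 (median -0.04). Of the genes named from the 4 lists, Avpr1b, Cyp11b1, Cyp11a1, Hsd11b2 and Lcn2, all with differences above 0, lay in bin 1, where the median difference was 0.04. Pomc and Plin4, also above 0, lay in bin 2. Those with differences below 0 lay in bin 3 (Adcyap1) and bin 4 (Bag1, Smarca4, Ep300 and Gpd1). Quantile normalization gives the arrays a common distribution, and with it the differences over both experiments were 0.07 for Crh, -0.04 for Crhr1, -0.01 for Nr3c1, -0.03 for Nr3c2, -0.12 for Fkbp5 and 0.05 for Sgk1. With it Crhr2 (-0.0045) and Crhbp (0.02) were on the other side of 0. At an unadjusted p under 0.05, 1029 probe sets were higher and 1674 lower over both experiments, and 482 and 1375 after quantile normalization. The part of this signal dependence in the values of the 10 genes was not tested beyond that comparison.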

How the data were processed

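Whole-brain RNA (200 ng per array) was hybridized to 10 arrays. The deposited values are log2 expression per probe set, made by the authors with Partek 6.6, per the submitters' processing notes. The handling of background, normalization and batches is not given in the sources used here. Experiment means were equal for each probe set, so a term for experiment was kept in each model. Gene symbols came from the annotation table of the platform, and the 10 symbols matched the RefSeq gene table by Entrez identifier.

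Models were fitted by limma (version 3.58.1, R 4.3.3; lmFit, eBayes), either with 1 mean per group (6 residual degrees of freedom) or with experiment and treatment terms (7), and adjusted by Benjamini-Hochberg over 21789 probe sets at 0.05. The fits were tested on simulated data. Correlations used exact permutation within groups in Python 3.11.15, and figures matplotlib 3.10.9. For the lists, the probe set with the highest mean stood for a gene. The 10 genes, the lists, the tests and the rule for named genes (every probe set of the 10, and 3 genes per list by smallest p over both experiments) were chosen with earlier results of these data known. Same-numbered ethanol and control arrays did not deviate together (correlations from -0.0953 to 0.144), so no pairing was used. Depth has no meaning for arrays, and their number limits the precision.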

Additional observations from a re-analysis of the deposited data

How the results depend on the processing

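None of the 10 genes passed adjusted p 0.05 in any comparison under the alternatives run (smallest adjusted p 0.145, 578 refits of 31 differences). Of those refits 41 had the opposite sign; the cause was not tested. With quantile normalization these were Crhbp (0.0364 in experiment 1, 0.0108 in experiment 2, 0.021 over both), Sgk1 (0.00556) and Tsc22d3 (0.0484) in experiment 1 and Crhr2 over both (-0.00446). With array weights they were Crhr1 (0.0273) and Crhbp (0.00811) in experiment 2 and Crhbp over both (0.0015). With arrays centred on their medians they were Nr3c1 in experiment 2 (-0.0261) and Sgk1 over both (-0.0242). Leaving out 1 array at a time turned the sign of these differences. In experiment 1 the ranges were -0.305 to 0.0156 (Crhr1), -0.0713 to 0.0486 (Crhr2), -0.0979 to 0.0655 (Crhbp), -0.218 to 0.0283 (Nr3c2), -0.0304 to 0.151 (Fkbp5), -0.116 to 0.110 (Tsc22d3) and -0.0836 to 0.108 (Pdk4). In experiment 2 they were -0.0995 to 0.0459 (Crhr1), -0.0334 to 0.0397 (Crhbp), -0.0253 to 0.0430 (Nr3c1), -0.0447 to 0.000537 (Nr3c2), -0.00573 to 0.0906 (Sgk1) and -0.106 to 0.000952 (Pdk4). Over both experiments they were -0.0330 to 0.0173 (Crhbp), -0.0699 to 0.00763 (Nr3c1), -0.0276 to 0.0250 (Sgk1) and -0.0586 to 0.00602 (Pdk4). The correlation of Fkbp5 ranged from -0.911 to 0.105 with Tsc22d3 and from -0.142 to 0.454 with Pdk4. Differences that kept their sign with 1 array left out still moved in size. These were Crh (0.0931 to 0.229 in experiment 1, 0.00122 to 0.0842 in experiment 2, 0.0615 to 0.119 over both), Crhr1 over both (-0.120 to -0.0124), Crhr2 (0.0202 to 0.125 in experiment 2, 0.00585 to 0.0680 over both), Nr3c1 in experiment 1 (-0.241 to -0.00549), Nr3c2 over both (-0.0854 to -0.00969), Fkbp5 (-0.251 to -0.157 in experiment 2, -0.148 to -0.0579 over both), Sgk1 in experiment 1 (-0.0805 to -0.0270) and Tsc22d3 (-0.172 to -0.0663 in experiment 2, -0.118 to -0.0375 over both). Over all probe sets, the count of calls in experiment 1 was 1 when that experiment was fitted alone and 0 to 235 with an array left out (235 without ethanol replicate 1, where the ethanol array that is left alone is taken to have the spread of the remaining groups). In experiment 2 it was 3 with a trend and robust prior, 2 with array weights and 0 to 1 with an array left out. Over both it was 0 to 1, and for the difference between experiments 0 to 94, again without ethanol replicate 1 of experiment 1. The replicate block, a hint only since the numbers did not pair the arrays, left 0 calls in each comparison (2025, 2182 and 2638 probe sets at an unadjusted p under 0.05 in experiment 1, experiment 2 and over both). Each gene had 1 probe set, so averaging probe sets gave no value.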
